A study of Mus musculus with 19 samples.

Results

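Transcripts of 10 genes of the Notch pathway, a signalling system in which a ligand on one cell activates a receptor on its neighbour, were followed through 7 groups of cells from mouse embryonic kidneys. The genes were taken by name: the receptors Notch1, Notch2, Notch3 and Notch4, the ligands Jag1, Jag2, Dll1 and Dll4, the glycosyltransferase Lfng and the target Hes1. The rule uses no measured value, although the genes were picked with earlier results of these data known, and all 10 were found among 20162 gene names of the table of embryonic stage E16.5 and 24452 of the table of stage E14.5. One E16.5 experiment used cells of the nephrogenic zone (NZC), the outer layer in which nephrons arise: an antibody to SIX2 divided them into SIX2+ and SIX2- fractions, and unsorted NZC were sequenced as well. These libraries are titled mMARIS, from the name of a method that recovers RNA from fixed cells stained inside, and no allele is named for them. Also at E16.5, GFP+ and GFP- cells came from developing kidneys with the allele Six2TGC/+, a reporter in which GFP follows Six2. At E14.5, Tdt+ and Tdt- cells came from kidneys with the alleles Foxd1Cre;Tdt, in which cells that express Foxd1, and their descendants, carry a red reporter. All groups were of the CFW strain and had n = 3 libraries each at E16.5 and n = 2 each at E14.5. The labels do not say which libraries came from separate animals or whether animals were pooled, so the p-values reflect spread among libraries, part of which may be technical.

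Several features of the groups bear on every value below. SIX2- cells are the remainder of the nephrogenic zone, whereas GFP- cells are labelled as coming from developing kidneys with no mention of that zone. GFP protein can persist after a cell has switched Six2 off, and the Foxd1Cre label stays for life, so Tdt+ cells include the pericytes and other descendants of Foxd1-expressing cells. Six2, the progenitor gene used for the E16.5 sorts, lay between 295 and 458 RPKM in SIX2+ libraries and between 4.43 and 46.8 in SIX2- libraries. It lay between 312 and 348 RPKM in GFP+ and between 2.70 and 16.8 in GFP- libraries. Foxd1 stood at 205 and 102 RPKM in the Tdt+ libraries against 29.9 and 25.2 in the Tdt- libraries. RPKM (reads corrected for gene length and for library depth) is the unit of every level given here, so levels of different genes are compared per length. Depth, estimated from the lowest values, ran from 26000000 to 46200000 reads in 14 E16.5 libraries. The second NZC library stood apart at 3100000 reads, the Tdt- libraries had 30600000 and 26600000 reads, and the Tdt+ libraries about 9400000 and 8400000 reads.

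Notch receptors are cut after a ligand binds, first by ADAM10 and then by the gamma-secretase complex, and the freed intracellular part enters the nucleus and joins RBPJ and Mastermind-like proteins at target genes. Among the best known targets are Hes and Hey genes, which encode repressors, and Nrarp, a feedback inhibitor of the pathway. Fringe enzymes such as LFNG add sugars to Notch receptors and so shift which ligands they answer. In the developing kidney, Notch signalling is known for moving nephron progenitors towards differentiation and for the patterning of the early nephron, where Notch2 has a leading role, and it also acts in blood vessels and their mural cells.

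Of the 4 receptors, Notch2 was the most abundant in the progenitor fractions and did not differ between SIX2+ and SIX2- cells beyond its error, whereas Notch1, Notch3 and Notch4 were lower in SIX2+ cells. Notch1 (ENSMUSG00000026923.15, GRCm38 chr2:26457903-26516663, minus strand) measured 5.10, 6.87 and 6.29 RPKM in the SIX2+ libraries and 12.4, 19.1 and 15.3 RPKM in the SIX2- libraries. Every SIX2+ library was below every SIX2- library, and the difference on the log2(RPKM + 1) scale, which understates changes of low genes, was -1.22 ± 0.20 (SE, limma, Benjamini-Hochberg adjusted p = 0.00034). Notch2 (ENSMUSG00000027878.11, chr3:98013527-98150361, plus strand) measured 14.1, 19.3 and 15.2 RPKM in SIX2+ and 13.8, 16.4 and 14.51 RPKM in SIX2- libraries. These ranges overlapped, and the log2 difference of 0.10 had a 95% interval from -0.47 to 0.68 (adjusted p = 0.841). Notch3 (ENSMUSG00000038146.8, chr17:32120820-32166852, minus strand), the receptor known from mural cells, measured 6.32, 7.10 and 9.25 RPKM in SIX2+ and 12.2, 11.1 and 16.4 RPKM in SIX2- libraries. Its groups did not overlap and its log2 difference was -0.73 ± 0.21 (adjusted p = 0.0222). Notch4 (ENSMUSG00000015468.14, chr17:34564268-34588503, plus strand), known from endothelium, measured 0.686, 0.592 and 0.751 RPKM in SIX2+ and 2.40, 4.56 and 3.43 RPKM in SIX2- libraries. It too was lower in every SIX2+ library, with a log2 difference of -1.39 ± 0.34 (adjusted p = 0.00737).

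Jag1, Dll1 and Dll4 were lower in the SIX2+ fraction, and Jag2 was low in both fractions. Jag1 (ENSMUSG00000027276.7, chr2:137081456-137116644, minus strand), a ligand of the Serrate type, measured 5.37, 9.43 and 3.13 RPKM in SIX2+ and 23.8, 38.4 and 20.1 RPKM in SIX2- libraries. The highest SIX2+ library was below the lowest SIX2- library, and the log2 difference was -2.08 ± 0.30 (adjusted p = 0.000117). Dll1 (ENSMUSG00000014773.13, chr17:15367354-15376872, minus strand), a Delta-type ligand known from the early nephron, measured 2.87, 3.60 and 3.24 RPKM in SIX2+ and 10.97, 21.7 and 14.6 RPKM in SIX2- libraries. The groups were again apart, with a log2 difference of -1.94 ± 0.28 (adjusted p = 0.000134). Dll4 (ENSMUSG00000027314.6, chr2:119325784-119335962, plus strand), a Delta-type ligand of blood vessels, measured 0.0318, 0.0633 and 0.0535 RPKM in SIX2+ libraries, an estimated 3.3, 11.3 and 8.9 reads, and 1.93, 4.15 and 0.695 RPKM in SIX2- libraries. Its log2 difference of -1.49 ± 0.50 had an adjusted p of 0.043, and it fails the threshold under 9 of 17 other settings, including the removal of SIX2- library 2 (adjusted p = 0.194). Jag2 (ENSMUSG00000002799.6, chr12:112907819-112929776, minus strand) measured 1.06, 1.24 and 1.37 RPKM in SIX2+ and 0.802, 1.29 and 0.995 RPKM in SIX2- libraries. The ranges overlapped, with a log2 difference of 0.14 and a 95% interval from -0.24 to 0.51.

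Lfng (ENSMUSG00000029570.5, chr5:140607320-140615545, plus strand) measured 9.26, 8.77 and 10.7 RPKM in SIX2+ and 18.7, 33.7 and 17.1 RPKM in SIX2- libraries. All SIX2+ libraries were lower, with a log2 difference of -1.13 ± 0.30 (adjusted p = 0.0134), which did not pass without SIX2- library 2 (adjusted p = 0.0781) or SIX2+ library 2 (0.0502). Hes1 (ENSMUSG00000022528.8, chr16:30064384-30067796, plus strand) measured 59.4, 51.2 and 25.6 RPKM in SIX2+ and 54.1, 94.0 and 41.4 RPKM in SIX2- libraries. These ranges overlapped, and the log2 difference was -0.47 with a 95% interval from -1.19 to 0.26 (adjusted p = 0.38).

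In all, 7 of the 10 genes were lower in SIX2+ cells and none was higher, by limma or at an unadjusted p under 0.05. Over all 12817 genes tested, 15.9% were called lower, 8.37% higher and 24.3% in either direction. Jag2 was called higher when the libraries were quantile normalised (log2 0.62, adjusted p = 0.0163). The median log2 difference of the 10 genes was -1.18, against 0.04 over all genes tested. The SIX2+ and SIX2- libraries did not overlap for 7 of the 10, as they did for 47.4% of all genes tested. Notch3 was not called without SIX2+ library 1 (adjusted p = 0.0941), SIX2+ library 2 (0.0719) or SIX2- library 3 (0.0991). Quantile normalisation ended the call of Notch4 (log2 -1.04, adjusted p = 0.0633) and rescaling to TPM that of Notch3 (log2 -0.78, 0.0566). Notch1, Jag1 and Dll1 were called under every setting run.

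Cell type markers moved with the same sort. Of 9 endothelial markers 8 were called lower in SIX2+ cells, with a summed level of 2.42 to 5.85 RPKM in SIX2+ and 59.1 to 169 RPKM in SIX2- libraries. All 6 mural markers were called lower, with a sum of 5.61 to 11.3 RPKM in SIX2+ and 177 to 262 RPKM in SIX2- libraries. Of 7 markers of early differentiating nephrons, 4 were called lower, and their sum was 116 to 155 RPKM in SIX2+ against 207 to 347 RPKM in SIX2- libraries. All 5 podocyte markers (sum 2.59 to 3.81 RPKM in SIX2+, 22.6 to 77.5 in SIX2-), all 5 markers of ureteric epithelium tested of 6 (0.878 to 1.64 against 21.6 to 35.8), all 5 of cortical stroma (37.8 to 48.0 against 189 to 355) and all 4 of leukocytes (0.255 to 2.65 against 33.6 to 45.5) were called lower as well. The leukocyte marker Ptprc reached 1 RPKM only in SIX2- and GFP- libraries (at most 1.02 and 1.57 RPKM), so the filter had fixed its direction. None of the markers of these lists was at 0 in any SIX2+ or SIX2- library. Their part in the lower values of Notch1, Notch3, Notch4, Jag1, Dll1, Dll4 and Lfng was not tested, and in bulk libraries fewer cells of a type and less RNA per cell cannot be told apart.

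**Figure D1:**
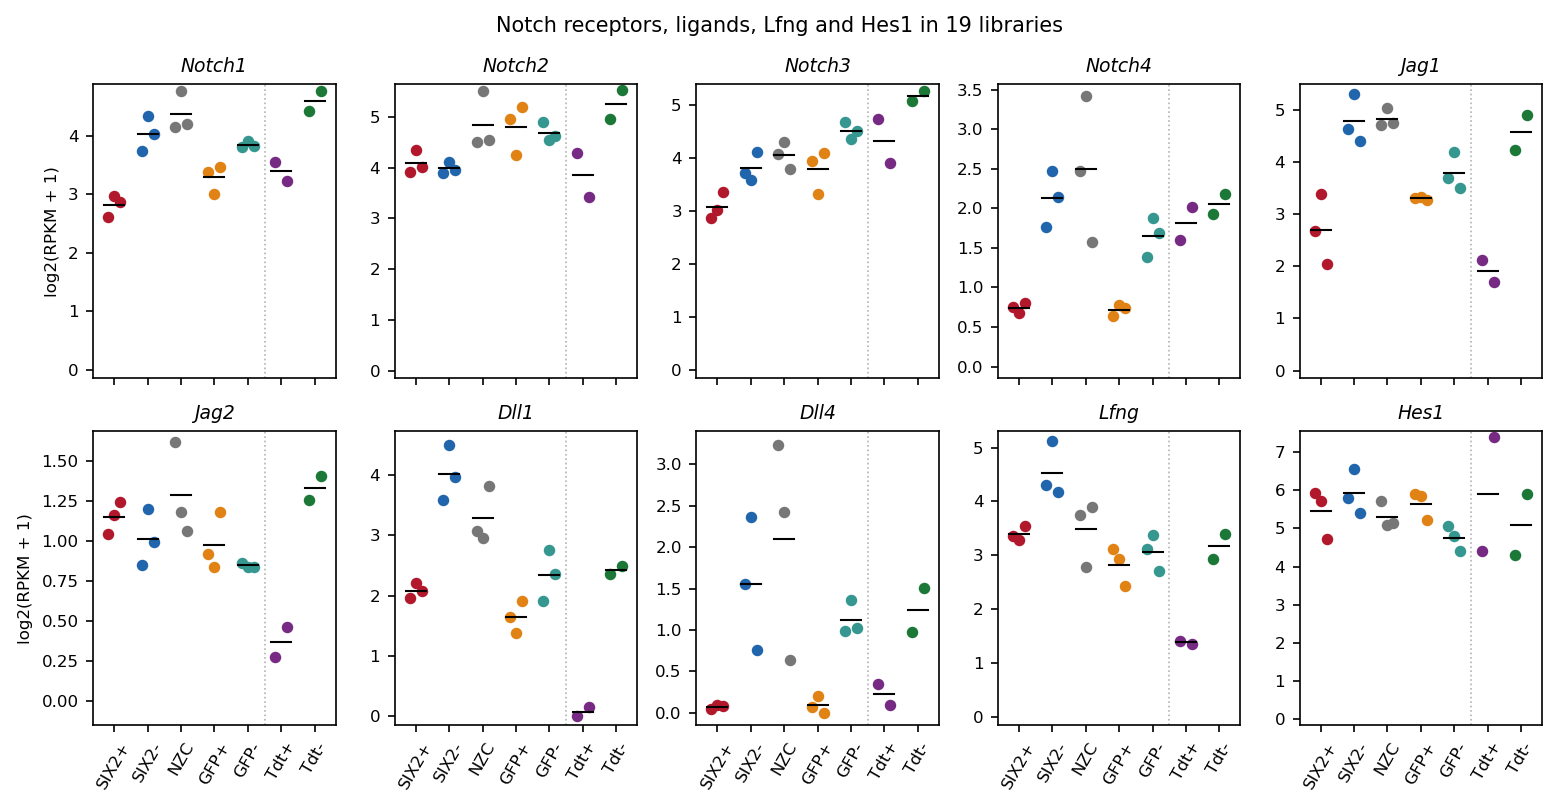
Levels of the 10 Notch genes as log2(RPKM + 1) on the vertical axis, 1 point per library in each of the 7 groups, with a bar at the group mean. The dotted line divides the E16.5 groups from the E14.5 groups, which were normalised separately, and each panel has its own scale. Notch1, Jag1 and Dll1 show SIX2+ points below all SIX2- points, and Tdt+ points below all Tdt- points.

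In the reporter sort Notch1, Notch3 and Notch4 were lower in the progenitor fraction, and no ligand passed the test with all libraries. Notch1 measured 9.45, 7.05 and 10.1 RPKM in GFP+ and 13.0, 14.005 and 13.2 RPKM in GFP- libraries, with no overlap and a log2 difference of -0.56 ± 0.20 (adjusted p = 0.0413). Notch3 measured 14.4, 9.08 and 16.2 RPKM in GFP+ and 24.7, 19.5 and 21.8 RPKM in GFP- libraries, also apart, with a log2 difference of -0.72 ± 0.21 (adjusted p = 0.0192). For Notch4 the values were 0.551, 0.722 and 0.672 RPKM in GFP+ and 1.62, 2.67 and 2.22 RPKM in GFP- libraries, with a log2 difference of -0.93 ± 0.34 (adjusted p = 0.048). All 3 receptors were thus lower in each GFP+ library than in any GFP- library. Notch2 measured 30.2, 17.99 and 35.6 RPKM in GFP+ and 28.7, 22.3 and 23.7 RPKM in GFP- libraries, which overlapped, with a 95% interval of the log2 difference from -0.46 to 0.69.

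Among the ligands, Jag1 measured 8.90, 9.04 and 8.65 RPKM in GFP+ and 11.9, 17.2 and 10.2 RPKM in GFP- libraries. The groups did not overlap, but the log2 difference of -0.49 ± 0.30 had an adjusted p of 0.231. Dll1 measured 2.13, 1.59 and 2.75 RPKM in GFP+ and 2.77, 5.74 and 4.14 RPKM in GFP- libraries. The highest GFP+ and lowest GFP- values nearly met, and the log2 difference was -0.70 ± 0.28 (adjusted p = 0.069). Dll1 was called lower without GFP- library 1 (log2 -0.91, adjusted p = 0.0394), without NZC library 2 (0.0467), when only the groups compared were fitted (0.0386), with library weights (0.0046) and with a pseudocount of 0.1 (0.0458). Jag1 (log2 -0.73, 0.0256) and Dll4 (-1.18, 0.00927) were called lower with library weights. Dll4 was listed at 0.0477, 0.149 and 0 RPKM in GFP+ and 0.988, 1.56 and 1.03 RPKM in GFP- libraries, with a log2 difference of -1.03 ± 0.50 (adjusted p = 0.131). The Jag2 values of 0.887, 0.784 and 1.26 RPKM in GFP+ and 0.821, 0.787 and 0.791 RPKM in GFP- libraries overlapped.

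Lfng measured 7.66, 6.59 and 4.39 RPKM in GFP+ and 7.69, 9.38 and 5.58 RPKM in GFP- libraries, which overlapped (log2 difference -0.25, adjusted p = 0.572). Hes1 stood the other way, at 58.3, 56.5 and 36.2 RPKM in GFP+ and 32.2, 27.1 and 20.1 RPKM in GFP- libraries. Every GFP+ library was above every GFP- library, and the log2 difference of 0.90 ± 0.34 missed the threshold (adjusted p = 0.0559), which it passed without GFP+ library 3 (0.0424) or NZC library 2 (0.0476). With the replicate number as a block, Hes1 was called higher (adjusted p = 0.016). That fit takes same-numbered GFP+ and GFP- libraries as paired because of their shared deviations, and the labels do not state such pairing.

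Thus 3 of 10 genes were called lower and none higher in GFP+ cells, beside 17.0% of all genes tested called lower, 15.9% higher and 32.9% in either direction. At an unadjusted p under 0.05, 4 were lower and 1, Hes1, was higher. The median log2 difference was -0.52 for the 10 genes and 0.10 for all genes tested. Groups did not overlap for 7 of the 10 genes, a share to be read beside 53.1% of all genes tested. The call of Notch1 was lost without any 1 of GFP- libraries 1, 2 and 3 or GFP+ libraries 1 and 2 (adjusted p from 0.0643 to 0.162), and that of Notch4 without any 1 of the 6 (0.0615 to 0.146). Notch3 was not called without GFP- library 1 (0.0775) or GFP+ library 2 (0.0951). Quantile normalisation ended the call of Notch4 (log2 -0.59, 0.252) and added Jag2 as higher (log2 0.56, 0.021). The endothelial marker sum was 1.75 to 7.44 RPKM in GFP+ and 48.1 to 91.7 RPKM in GFP- libraries, with 8 of 9 markers called lower, and the mural sum was 8.19 to 12.2 against 198 to 278 RPKM, with 6 of 6 called lower. Of the endothelial markers 2, and of the mural markers 1, were at 0 in a GFP+ library. Markers of early differentiating nephrons moved both ways: 2 of 7 were called higher and 3 lower, with a sum of 153 to 179 RPKM in GFP+ and 110 to 135 RPKM in GFP- libraries. All 5 podocyte markers, all 5 of cortical stroma, all 4 of leukocytes and 4 of the 5 tested of ureteric epithelium were called lower in GFP+ cells. Ptprc, of the leukocyte list, passed the filter only through SIX2- and GFP- libraries, so its direction was fixed here too. The part of these markers in the Notch values was not tested.

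**Figure D2:**
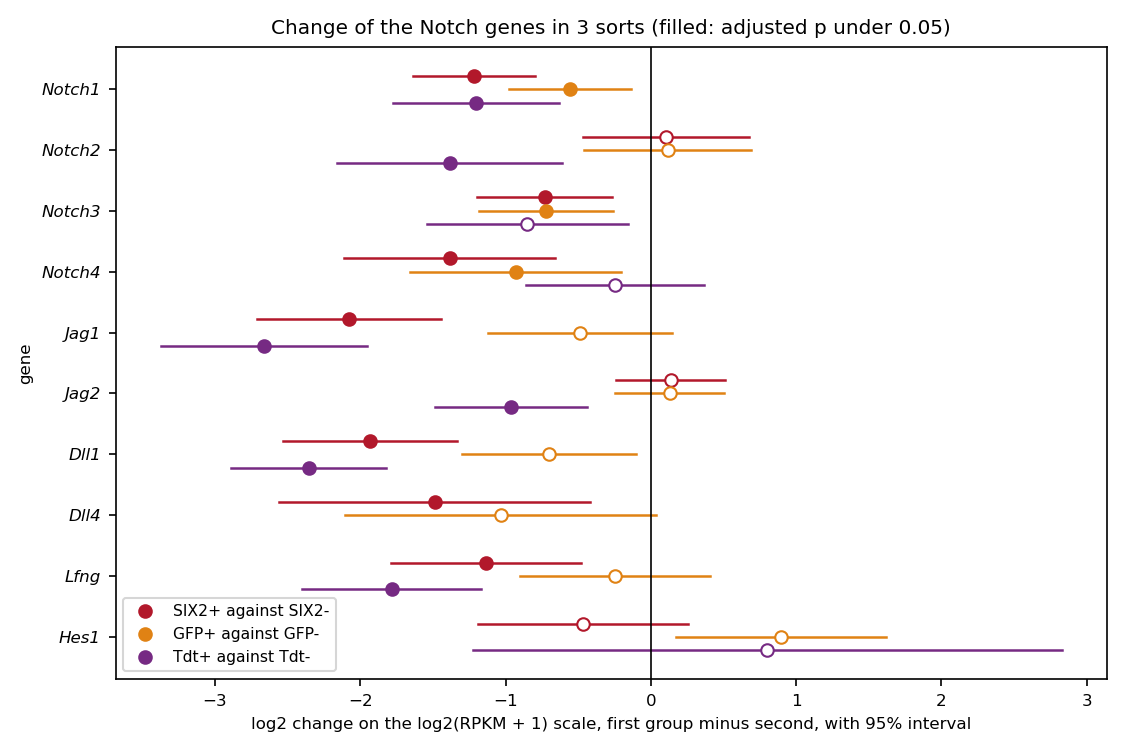
Difference of each Notch gene between the marker-positive and marker-negative cells of 3 sorts, on the log2(RPKM + 1) scale, as points with 95% intervals. Filled points have a limma adjusted p under 0.05. In the antibody sort 7 of 10 genes are called lower, in the GFP sort 3 of 10 and in the Tdt sort 6 of 9 tested, and Dll4 has no Tdt point because it failed the filter on low values.

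The size of the difference was then compared between the antibody and the reporter sort. Jag1 had the lowest unadjusted p of the 10 genes in this test: its log2 difference was -2.08 in the antibody sort and -0.49 in the reporter sort, a difference between sorts of -1.59 ± 0.42 (adjusted p = 0.186). For Dll1 the difference between sorts was -1.24 ± 0.40 (adjusted p = 0.371), and for Hes1 it was -1.36 ± 0.48 (0.494). Notch1 differed by -0.66 ± 0.28 (0.786) and Lfng by -0.89 ± 0.43 (0.973). With limma none of the 10 genes was called, beside 0.140% of all genes tested, while 4 of the 10 (Notch1, Jag1, Dll1 and Hes1) had an unadjusted p under 0.05, all towards a lower value in the antibody sort. With library weights in limma, 5 of the 10 were called (Notch1, Jag1, Dll1, Lfng and Hes1). Notch2 and Notch3 differed between the sorts by -0.01 each, with 95% intervals from -0.82 to 0.80 and from -0.66 to 0.64. Of 7 markers of early differentiating nephrons, 2 were called lower in the same test. Of 5 markers of cortical stroma, 1 was called higher, and no marker of the other lists was called. The marker-negative cells compared here come from differently described parts of the kidney, so the sort, the allele, the dissected tissue and any difference in fixation or RNA kit cannot be told apart.

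The progenitor fractions themselves were also set side by side, SIX2+ against GFP+. With limma none of the 10 genes was called, beside 3.07% of all genes tested, and 3 receptors were lower in SIX2+ cells at an unadjusted p under 0.05. The log2 difference was -0.71 for Notch3 (95% interval -1.17 to -0.25, adjusted p = 0.104), -0.71 for Notch2 (-1.28 to -0.14, 0.205) and -0.47 for Notch1 (-0.89 to -0.05, 0.256). These 3 were called with library weights, Notch3 without GFP+ library 2 (adjusted p = 0.0257) and Notch2 without NZC library 2 (0.0492). All of them are long: their exons add up to 14.2 kb for Notch1, 10.8 kb for Notch2 and 8.09 kb for Notch3. Over genes of 8 kb and more the median log2 difference between SIX2+ and GFP+ cells was -0.20, whereas it was 0.09 over shorter genes, and the part of length in the receptor values was not tested. Notch4, as long at 8.06 kb but low in both fractions, differed by 0.03 (-0.70 to 0.75). Jag1 differed by -0.60 (-1.24 to 0.03), Dll1 by 0.44 (-0.16 to 1.03), Lfng by 0.57 (-0.08 to 1.23) and Hes1 by -0.20 (-0.92 to 0.53). Groups did not overlap for 3 of the 10 genes, beside 26.9% of all genes tested: Notch1 was lower, and Dll1 and Lfng were higher, in each SIX2+ library than in any GFP+ library, without passing the test.

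At E14.5, 6 of the 9 Notch genes tested were lower in the Foxd1-lineage cells than in the other kidney cells. Jag1 measured 3.36 and 2.22 RPKM in the Tdt+ and 17.8 and 28.9 RPKM in the Tdt- libraries, far apart, with a log2 difference of -2.66 ± 0.31 (adjusted p = 0.00268). Dll1 was listed at 0 in 1 Tdt+ library and at 0.104 RPKM, an estimated 3.7 reads, in the other, against 4.15 and 4.62 RPKM in the Tdt- libraries. Its log2 difference of -2.36 ± 0.23 (adjusted p = 0.00148) passed under the 11 other settings that gave it a value. Without either Tdt- library, Dll1, Jag2, the target Nrarp and the fringe gene Mfng failed the filter on low values, so no such check exists for them. They reached 1 RPKM only in the Tdt- libraries, the group where they are high, so they could not have been called higher. Lfng measured 1.66 and 1.56 RPKM in Tdt+ and 6.67 and 9.53 RPKM in Tdt- libraries, with a log2 difference of -1.78 ± 0.27 (adjusted p = 0.00661). Jag2 measured 0.208 and 0.380 RPKM in Tdt+ and 1.39 and 1.65 RPKM in Tdt- libraries, with a log2 difference of -0.96 ± 0.23 (adjusted p = 0.0391). Both Serrate-type ligands, Dll1 and Lfng were low in the stromal fraction. Dll4 measured 0.275 and 0.0688 RPKM in Tdt+ and 0.964 and 1.85 RPKM in Tdt- libraries, and it was not tested because only 1 library reached 1 RPKM.

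Among the receptors, Notch1 and Notch2 were called lower in Tdt+ cells. Notch1 measured 10.8 and 8.40 RPKM in Tdt+ and 20.5 and 26.2 RPKM in Tdt- libraries (log2 difference -1.20 ± 0.25, adjusted p = 0.0241). Notch2 measured 18.6 and 9.76 RPKM in Tdt+ and 30.0 and 45.2 RPKM in Tdt- libraries (log2 difference -1.39 ± 0.34, adjusted p = 0.0435). Both were lower in each Tdt+ library than in either Tdt- library, as was Notch3, at 25.6 and 13.9 against 32.6 and 37.6 RPKM, which did not pass the test (log2 difference -0.85 ± 0.30, adjusted p = 0.139). Notch4 overlapped, at 2.04 and 3.04 RPKM in Tdt+ and 2.82 and 3.53 RPKM in Tdt- libraries (log2 difference -0.25, 95% interval -0.86 to 0.37). Hes1 varied widely within the groups, at 20.3 and 167 RPKM in Tdt+ and 18.8 and 58.5 RPKM in Tdt- libraries, and its log2 difference of 0.80 had a 95% interval from -1.23 to 2.83.

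Over all 12383 genes tested at E14.5, 7.21% were called lower in Tdt+ cells, 1.22% higher and 8.43% in either direction, beside 6 of 9 Notch genes called lower by limma and none higher. Dll1 and Jag2, counted among the 6, passed the filter only through the Tdt- libraries, so the filter had fixed their direction. At an unadjusted p under 0.05, 7 were lower (Notch3 added) and none was higher. The median log2 difference was -1.20 over the 9 genes and -0.04 over all genes tested. The groups did not overlap for 7 of the 9 (nor for Dll4, which was not tested), and for 54.6% of all genes tested. With 2 libraries a group, leaving out 1 assumes that the lone library varies like the other group: Notch1 was then not called without Tdt- library 1 (adjusted p = 0.0504) or Tdt- library 2 (0.309), nor were Notch2 (0.214) and Lfng (0.0577) without Tdt- library 2. Jag2 was not called after quantile normalisation (log2 -0.29, 0.499) or median-of-ratios scaling (-0.92, 0.0576), nor was Notch2 after the latter (-1.29, 0.0612) or after rescaling to TPM (-1.65, 0.0614). Notch3 was called without Tdt+ library 1 (log2 -1.27, 0.00351), and Hes1 was called higher without Tdt+ library 1 (log2 2.29, 0.0091) or Tdt- library 2 (log2 1.60, 0.0141). Mural markers, a fate of Foxd1-lineage cells, were called by limma in 0 of 6 cases (3 at an unadjusted p under 0.05), at a sum of 185 to 196 RPKM in Tdt+ and 155 to 251 RPKM in Tdt- libraries. The endothelial sum was 22.2 to 29.9 RPKM in Tdt+ and 87.3 to 116 RPKM in Tdt- libraries, with 6 of 9 markers called lower. Of 7 markers of early differentiating nephrons, 6 were called lower, at a sum of 74.5 to 92.1 against 168 to 191 RPKM. Nephron progenitor markers (5 of 6 called lower, sum 10.7 to 14.6 against 244 to 272 RPKM), podocyte markers (5 of 5 lower, 6.33 to 6.69 against 42.2 to 56.1) and leukocyte markers (3 of 3 tested lower) went the same way, whereas 4 of 5 markers of cortical stroma were called higher (458 to 613 against 134 to 161 RPKM). For ureteric epithelium 1 of 3 markers tested was called lower, and the sums overlapped, at 11.5 to 20.7 RPKM in Tdt+ and 11.4 to 14.7 RPKM in Tdt- libraries. Some markers called lower, Lhx1, Pax8, Nphs1 and Tyrobp among them, reached 1 RPKM only in the Tdt- libraries, so the filter had fixed their direction. The part of all the markers listed here in the Notch values was not tested.

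Within each group, the make-up of the receptor transcripts differed between fractions. Notch2 made up 53.0% ± 4.42 (SD, n = 3) of the summed receptor RPKM in SIX2+ cells and 54.6% ± 2.72 in GFP+ cells, the groups in which its mean share was above that of the other 3 receptors together. Its share was 31.7% ± 2.38 in SIX2-, 39.7% ± 2.18 in GFP- and 40.8% ± 4.10 in NZC libraries. At E14.5 it was 37.6% ± 3.72 in Tdt- libraries (n = 2), and Notch3 was the larger component in Tdt+ libraries at 42.3% ± 3.73 against 30.2% ± 3.39 for Notch2. Notch4 stayed under 10% of the sum in every library. The summed receptor level was 30.5 ± 3.93 RPKM in SIX2+, 47.2 ± 5.62 in SIX2-, 50.7 ± 14.2 in GFP+ and 62.4 ± 4.92 RPKM in GFP- libraries, and 46.1 ± 15.5 in Tdt+ and 99.3 ± 18.8 RPKM in Tdt- libraries. Shares and sums combine RPKM across genes and were not tested.

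The ligand sum was 10.5 ± 3.42 RPKM in SIX2+ and 46.5 ± 16.53 RPKM in SIX2- libraries, 12.1 ± 0.560 in GFP+ and 19.3 ± 5.13 in GFP- libraries, and 3.31 ± 0.753 in Tdt+ and 30.7 ± 8.99 RPKM in Tdt- libraries. Jag1 had the largest mean share in every group, from 54.5% ± 13.1 of the ligand sum in SIX2+ to 83.8% ± 5.19 in Tdt+ libraries. In SIX2+ library 3, however, Dll1 at 3.24 RPKM stood above Jag1 at 3.13 RPKM. Dll1 came next in the E16.5 groups, with 34.1% ± 5.52 in SIX2- and 32.5% ± 8.36 in SIX2+ libraries, and it was 1.87% ± 2.64 of the small ligand sum of Tdt+ libraries.

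**Figure D3:**
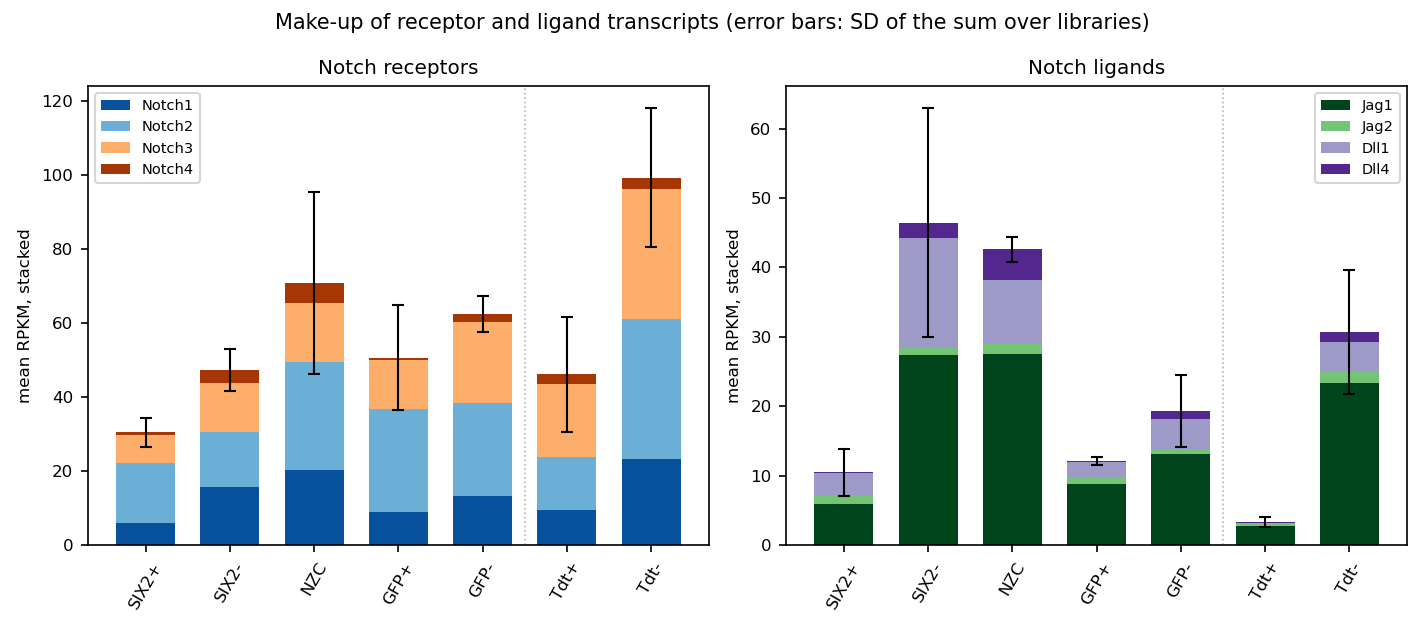
Mean RPKM of the 4 receptors (left) and the 4 ligands (right), stacked, for the 7 groups, with the SD of the sum over libraries as error bars (n = 3 libraries a group at E16.5, n = 2 at E14.5). Notch2 is the widest receptor band in SIX2+ and GFP+ cells, and Jag1 is the widest ligand band in all groups. The E14.5 groups, right of the dotted line, were normalised separately.

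Ordered by their mean level, Hes1 led the 10 genes in all 7 groups, though it overlapped with the next gene in NZC, GFP-, Tdt- and Tdt+ libraries. In Tdt+ cells Hes1 led through library 2 at 167 RPKM, and in library 1 it stood at 20.3 RPKM, below Notch3 at 25.6 RPKM. In SIX2+ cells it was followed by Notch2 and then by Lfng, Notch3, Notch1, Jag1 and Dll1, each of which overlapped with its neighbour in that order, and Jag2, Notch4 and Dll4 were last. In GFP+ cells the order was Hes1, Notch2, Notch3, Jag1, Notch1, Lfng, Dll1, Jag2, Notch4 and Dll4, and only Jag1 and Notch1, and Notch1 and Lfng, overlapped as neighbours. In SIX2- cells Jag1, Lfng and Dll1 came directly after Hes1 and ahead of all receptors, though these neighbours overlapped down to Notch3. In Tdt+ cells the receptors Notch3, Notch2 and Notch1 followed Hes1, and Dll1 was last. Unsorted NZC, which hold both SIX2+ and SIX2- cells, lay outside the range of all 6 sorted libraries for 1 of the 10 genes. That gene was Notch2, at 21.6, 44.4 and 22.2 RPKM, and 6.49% of all genes tested lay above the sorted libraries in the same way. None of the 10 lay below them, as 8.93% of all genes tested did. The NZC library at 44.4 RPKM was the one of lowest depth. The other NZC levels were 16.8, 26.3 and 17.4 RPKM for Notch1, 25.0, 31.8 and 25.9 RPKM for Jag1, and 8.45, 4.39 and 0.557 RPKM for Dll4.

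Hes1 is 1 of several transcriptional targets of the pathway, and the others were taken from a list of 54 further pathway genes. Of the 7 genes listed as targets in it, 4 were called lower and 1, Hes6, higher in SIX2+ cells. Hes7, counted among the 4 lower, reached 1 RPKM only in SIX2- and GFP- libraries (at most 1.18 and 1.07 RPKM). It stayed at or below 0.479 RPKM in SIX2+ libraries, so the filter had fixed its direction. Hes5, a target known from the early nephron, measured 0.115, 0.275 and 0.199 RPKM in SIX2+ and 2.73, 7.31 and 5.67 RPKM in SIX2- libraries. It was lower in all SIX2+ libraries, with a log2 difference of -2.31 ± 0.37 (adjusted p = 0.000324). The feedback inhibitor Nrarp measured 1.97, 3.09 and 2.33 RPKM in SIX2+ and 15.1, 26.5 and 10.1 RPKM in SIX2- libraries, again apart, with a log2 difference of -2.31 ± 0.30 (adjusted p = 5.29e-05). Hey1 and Heyl, genes for Hairy-related repressors, were high in both fractions. Hey1 measured 18.7, 28.9 and 11.6 RPKM in SIX2+ and 20.9, 47.5 and 19.2 RPKM in SIX2- libraries, which overlapped (log2 difference -0.51, adjusted p = 0.373). Heyl measured 18.4, 15.01 and 18.1 RPKM in SIX2+ and 21.4, 27.5 and 19.4 RPKM in SIX2- libraries (log2 difference -0.38, adjusted p = 0.254). With library weights Hes1 (log2 -0.74, adjusted p = 0.00789), Hey1 (-0.78, 0.0259) and Heyl (-0.67, 0.000118) were called lower in SIX2+ cells, though not in the fit without weights. Hes6, whose product opposes HES1, was the listed gene called higher, with a log2 difference of 1.34 ± 0.17 (adjusted p = 5.23e-05). Whether Notch drives Hes6 in these cells was not tested.

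In the reporter sort the genes listed as targets split by direction, with 3 of 7, Hes6 among them, called higher and 3 lower in GFP+ cells. Hes7, counted among the 3 lower, stayed at or below 0.0487 RPKM in GFP+ libraries. It passed the filter only through SIX2- and GFP- libraries, so its direction was fixed here too. Nrarp measured 1.84, 3.39 and 1.65 RPKM in GFP+ and 4.40, 7.58 and 4.99 RPKM in GFP- libraries (log2 difference -1.02 ± 0.30, adjusted p = 0.0179). Heyl measured 23.9, 20.1 and 19.4 RPKM in GFP+ and 11.9, 12.0 and 8.38 RPKM in GFP- libraries and was higher in each GFP+ library (log2 difference 0.92 ± 0.22, adjusted p = 0.00476). Hey1 was also higher, at 15.4, 21.4 and 12.0 against 5.85, 10.8 and 5.55 RPKM (log2 difference 1.06 ± 0.36, adjusted p = 0.0375). Hes5 was listed at 0.0369, 0.201 and 0 RPKM in GFP+ and 0.305, 1.5004 and 1.56 RPKM in GFP- libraries and did not pass the test (log2 difference -0.92, adjusted p = 0.0725). It was called lower without GFP- library 1 (0.031) or NZC library 2 (0.0488), and with library weights (0.00569). Rescaling to TPM (0.0221) and a pseudocount of 0.1 (0.00743) also gave that call. The calls of Nrarp and Hey1 depended on single libraries: Nrarp was not called without GFP+ library 1 (adjusted p = 0.0627), GFP- library 2 (0.0866) or GFP+ library 3 (0.0733), and Hey1 was not called without GFP- library 1 (0.122), GFP+ library 1 (0.0768), GFP+ library 2 (0.14) or GFP- library 3 (0.118). A pseudocount of 5 ended both calls (Nrarp 0.0652, Hey1 0.0633), and library weights (0.0734) or no filter (0.0685) ended that of Hey1. Heyl had a difference between the sorts of -1.30 ± 0.31 (adjusted p = 0.138), which was called when only the 4 groups compared were fitted or when NZC library 2 was left out (0.0211 each). Hey1 (-1.57, adjusted p = 0.401), Hes5 (-1.39, 0.593) and Nrarp (-1.29, 0.414) did not pass that test. With library weights Heyl (adjusted p = 0.000117), Hey1 (0.0353), Hes5 (0.0152) and Nrarp (0.0169) were all called in it.

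At E14.5, Hey1 measured 1.86 and 3.55 RPKM in Tdt+ and 16.03 and 12.5 RPKM in Tdt- libraries (log2 difference -2.07 ± 0.30, adjusted p = 0.00611). Nrarp measured 0.655 and 0.921 RPKM against 3.90 and 5.02 RPKM (log2 difference -1.61 ± 0.25, adjusted p = 0.00798), and Heyl 9.31 and 7.51 against 17.8 and 19.9 RPKM (-1.08 ± 0.24, 0.0299). All 3 were lower in both Tdt+ libraries, in contrast to Hes1. Heyl was not called without Tdt- library 1 (adjusted p = 0.179) or Tdt- library 2 (0.341). Hes5 was listed at 0 in both Tdt+ libraries and at 0.128 and 0.0891 RPKM in the Tdt- libraries, so it was at or near 0 in both groups and was not tested.

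**Figure D4:**
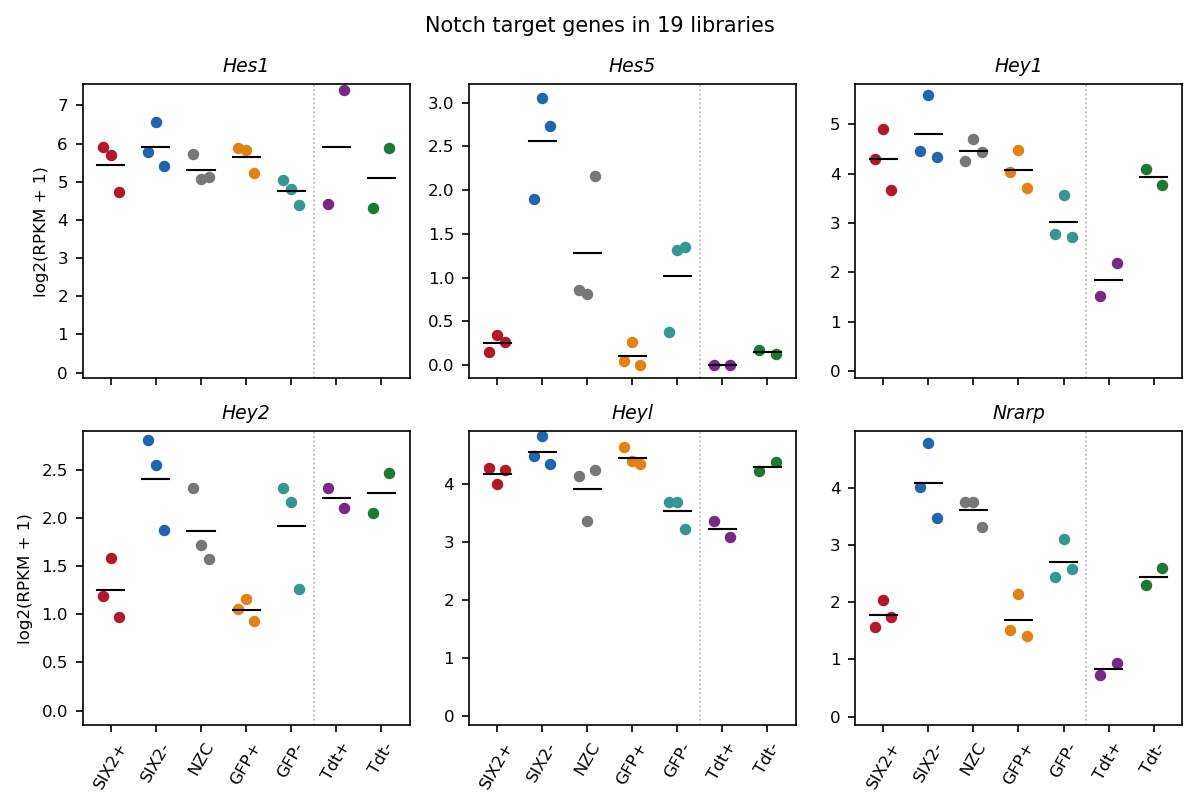
Levels of 6 Notch target genes as log2(RPKM + 1) on the vertical axis, 1 point per library in the 7 groups, with a bar at the group mean and a scale for each panel. Hes5 and Nrarp points lie lower in SIX2+ than in SIX2- libraries, whereas Hey1 and Heyl points lie higher in GFP+ than in GFP- libraries. The dotted line divides the E16.5 from the E14.5 groups.

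Lfng, Hes5 and Nrarp were lower in SIX2+ cells together, and their promoters are shown to compare them for the core of the site bound by RBPJ, TGGGAA, which reads TTCCCA when it lies on the opposite strand. The 250 bases before the RefSeq start (GRCm38.p6, plus strand for all 3) are printed with each match in capitals: chr4:154960673-154960922 for Hes5, chr5:140607091-140607340 for Lfng and chr2:25180508-25180757 for Nrarp.
Hes5: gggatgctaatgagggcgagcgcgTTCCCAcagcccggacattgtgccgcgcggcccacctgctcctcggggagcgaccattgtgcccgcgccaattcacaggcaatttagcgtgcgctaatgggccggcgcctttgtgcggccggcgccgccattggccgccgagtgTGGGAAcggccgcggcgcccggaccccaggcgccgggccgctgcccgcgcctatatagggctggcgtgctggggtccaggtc
Lfng: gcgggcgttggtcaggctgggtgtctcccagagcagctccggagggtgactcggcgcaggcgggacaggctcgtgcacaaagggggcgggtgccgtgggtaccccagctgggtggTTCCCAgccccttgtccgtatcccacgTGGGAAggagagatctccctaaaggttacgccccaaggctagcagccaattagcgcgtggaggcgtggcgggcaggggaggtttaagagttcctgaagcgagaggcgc
Nrarp: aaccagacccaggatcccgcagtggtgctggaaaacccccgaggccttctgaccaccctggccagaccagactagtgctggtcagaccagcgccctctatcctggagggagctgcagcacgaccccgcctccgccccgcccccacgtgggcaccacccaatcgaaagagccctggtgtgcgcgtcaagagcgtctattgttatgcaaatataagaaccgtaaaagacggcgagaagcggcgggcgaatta
Hes5 held the motif on both strands, the forward match 82 and the reverse match 226 bases before the start. Lfng also held it on both strands, with the forward match 108 and the reverse match 135 bases before the start. The Nrarp window held no match. A match on either strand occurred in 21.6% of 32851 promoters of the same length, and matches on both strands in 1.28%. Of the 9 members with a promoter entry, 1 (Lfng) held the motif, as did 12 of the 43 pathway genes with an entry. A match describes the letters of the window and not a bound site.

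The remaining pathway genes, chosen for their roles as ligands, sugar-adding enzymes, proteases, endocytosis and ubiquitin factors, nuclear partners, corepressors and targets, were called in shares near those of all genes. In SIX2+ against SIX2- cells 7 of the 51 tested were called higher and 9 lower, beside 8.37% and 15.9% of all genes tested, with a median log2 difference of 0.05. In GFP+ against GFP- cells 10 of 51 were called higher and 10 lower, beside 15.9% and 17.0%, with a median of 0.07. The non-canonical ligand Dlk1 had the largest difference in both sorts, at 0.695 to 0.805 RPKM in SIX2+ against 40.3 to 73.0 RPKM in SIX2- libraries (log2 -4.95 ± 0.34, adjusted p = 1.01e-07) and with a log2 difference of -4.37 ± 0.34 in GFP+ cells (2.5e-07). The Groucho-type corepressor Tle2 was higher in both progenitor fractions, with log2 differences of 2.22 ± 0.44 (adjusted p = 0.0018) and 2.79 ± 0.44 (0.000223), as was Hes6 (1.70 ± 0.17 in GFP+ cells, 3.97e-06). Dtx1, a Deltex-type ubiquitin ligase, was also higher in both, with log2 differences of 1.30 ± 0.22 in SIX2+ (adjusted p = 0.000471) and 1.18 ± 0.22 in GFP+ cells (0.000836). The coactivator Maml2 was lower in both (log2 -1.26 ± 0.30 in SIX2+, adjusted p = 0.00693, and -1.53 ± 0.30 in GFP+, 0.00142), as was the ligand-directed ubiquitin ligase Neurl1b (-1.21 ± 0.18, 0.000203, and -1.45 ± 0.18, 2.81e-05). Dtx4 was lower in GFP+ cells (-1.19 ± 0.17, 7.65e-05) and did not pass in SIX2+ cells (-0.17, 0.529).

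Between the progenitor fractions, 2 of 51 pathway genes were called, beside 3.07% of all genes tested, both lower in SIX2+ cells. Mib1, the ubiquitin ligase that lets ligands be endocytosed, measured 1.73, 2.85 and 3.88 RPKM in SIX2+ and 1.81, 2.52 and 4.48 RPKM in SIX2- libraries. It measured 13.6, 35.1 and 21.6 RPKM in NZC, 23.5, 13.97 and 19.6 RPKM in GFP+, and 18.99, 18.1 and 16.2 RPKM in GFP- libraries. It was therefore low in both antibody-sorted fractions and not in the unsorted cells of the same zone, with a log2 difference of -2.40 ± 0.32 between SIX2+ and GFP+ (adjusted p = 0.00195). The corepressor Tle3 had a log2 difference of -0.70 ± 0.14 (adjusted p = 0.0155), a call lost without any 1 of SIX2+ libraries 2 and 3 and GFP+ libraries 1 and 3 (0.0585 to 0.103). With limma, no pathway gene was called in the difference between sorts, where 5 of 51 had an unadjusted p under 0.05 and Dtx4 was called when only the 4 groups were fitted (log2 1.01, adjusted p = 0.0444).

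In Tdt+ against Tdt- cells 1 of 49 pathway genes was called higher and 7 lower, beside 1.22% and 7.21% of all genes tested, with a median log2 difference of -0.18. The gene called higher was Dlk1, at 90.2 and 85.0 RPKM in Tdt+ and 28.7 and 41.1 RPKM in Tdt- libraries, a call lost without Tdt- library 1 (adjusted p = 0.366). The fringe gene Mfng was listed at 0 and 0.259 RPKM in Tdt+ against 3.33 and 2.86 RPKM in Tdt- libraries. Its log2 difference was -1.87 ± 0.24 (adjusted p = 0.00394), in the same direction as Lfng. Another fringe gene, Rfng, was not called, and its groups overlapped, with means of 13.8 RPKM in Tdt+ and 11.8 RPKM in Tdt- libraries. Adam10, which makes the first cut in the receptor, measured 29.4 and 18.6 RPKM in Tdt+ and 59.1 and 74.9 RPKM in Tdt- libraries (log2 difference -1.47 ± 0.28, adjusted p = 0.0166), and Dtx4 was also lower (-1.38 ± 0.24, 0.013). Adam10 was not called without Tdt- library 2 (0.0797), and Dtx4 without Tdt- library 1 (0.153) or 2 (0.167).

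The genes whose log2(RPKM + 1) values ran most like each member over the 15 E16.5 libraries are given as a description, since these libraries share their groups and Pearson's r then largely follows the groups. Dll4 ran most closely with Ushbp1 (r = 0.996), Myct1 (0.994) and Hhex (0.987), and Notch4 with Lyl1 (0.971), Sh3tc1 (0.969) and Cmklr1 (0.967). Dll1 ran with Lad1 (0.976), Fibcd1 (0.966) and Lypd6b (0.960). Jag1 ran with Myo5b (0.939), Clec18a (0.935) and Spon1 (0.932), and Notch1 with Lama1 (0.948), Spon1 (0.946) and Fras1 (0.945), so Spon1 stood in both sets. Notch2 ran with Kmt2a (0.978), Zfp318 (0.964) and Herc2 (0.962), and Notch3 with Gbf1 (0.963), Susd6 (0.956) and Sh3pxd2b (0.950). Lfng had its highest values with Cabp1 (0.915), Ppm1j (0.906) and Slc35f2 (0.890). The lowest were those of Hes1, with Gadd45a (0.862), Rnf7 (0.828) and Ap1s2 (0.824), and Jag2, with Adam15 (0.836), Flt4 (0.828) and Tspan18 (0.811). Between the members, r was highest for Notch1 with Notch4 (0.898) and with Jag1 (0.892). Next came Notch4 with Dll4 (0.885) and with Jag1 (0.831), and then Dll1 with Lfng (0.817).

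Exons of Notch1, Notch3, Dll1 and Dll4 overlap those of a gene on the opposite strand in the GENCODE M21 annotation, and those of Notch2 a short gene model on the same strand. Whether reads were counted by strand is not given in the sources used here, so reads of such partners could have entered these 5 values.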

How the data were processed

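RNA was sequenced from 19 mouse kidney cell libraries made with the Kapa stranded mRNA kit, after isolation with the Ambion RecoverAll and QIAGEN RNeasy Micro kits, per the labels' protocols, which do not say which library had which. TopHat2, Partek and the build mm10 are named without versions or roles, per the submitters' processing notes. The authors deposited 1 table for E16.5 (15 libraries) and 1 for E14.5 (4 libraries). The deposited values are titled TPM but behave as RPKM: their column sums differ, from 339454 to 429529 and from 342196 to 453324 (coefficient of variation 7.99% and 13.8%), and sums weighted by exonic length differ less (2.70% and 2.94%). Rescaling to TPM was an alternative. Tests were made within a table, and counts could not be recovered.

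Values were compared as log2(RPKM + 1) with limma 3.58.1 in R 4.3.3 (eBayes with an intensity trend, two-sided, Benjamini-Hochberg adjusted p under 0.05 over all genes tested). The E16.5 fit held 5 group means of genes at 1 RPKM or more in at least 3 libraries (10 residual degrees of freedom), and the E14.5 fit held 2 group means of genes at 1 RPKM or more in at least 2 libraries (2). Other steps used matplotlib 3.10.9, pandas 2.3.3, numpy 2.4.6 and python 3.11.15. The fits were tested on simulated data. Positions are from GENCODE M21 (GRCm38, also called mm10), and promoters from RefSeq.

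The 10 members, the 54 pathway genes and the marker lists were chosen with earlier results of these data known. The members are named throughout. Of the pathway genes, the called ones with the largest change (up to 6 per comparison) and Hes5, Hey1, Heyl and Nrarp are named, with 3 similar genes per member. Any other named gene was chosen after its values were seen. Hey2 appears in a figure only.

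Replicate numbers are shared across groups. Deviations from group means correlated by number in the antibody sort (r = 0.641, 0.279 and 0.676) and in the reporter sort (0.455, 0.445 and 0.39). Both sorts were taken as paired, which the labels do not state. SIX2+ and GFP+, from separate sorts, gave 0.398, -0.017 and 0.584, in part as high, and were not taken as paired. Alternatives were the pseudocount, the filter, scaling, library weights, the trend, the samples fitted, the replicate block and leaving out libraries.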

Additional observations from a re-analysis of the deposited data

How the results depend on the processing

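The antibody sort gave 3109 genes called, against 7044 when libraries were weighted and 1941 from replicates 1 and 2 only (chosen after seeing the data), and 2258 to 4192 without 1 library. Of the Notch genes 7 were called there, 4 with replicates 1 and 2 only and 4 to 7 without 1 library. The reporter sort gave 4219 genes, 7377 with library weights, 2602 from replicates 1 and 2 only and 3073 to 5685 without 1 library. Its 3 Notch genes became 5 with a pseudocount of 0.1 or when only the groups compared were fitted, 7 with library weights, 1 with a pseudocount of 5 or no filter, and 0 to 5 without 1 library. SIX2+ against GFP+ gave 394 genes, 3091 with library weights, 771 from only the groups compared, 57 with replicates 1 and 2 only and 113 to 983 without 1 library, with 3 Notch genes under library weights and 0 to 1 without 1 library. The difference between sorts gave 18 genes, 38 with a pseudocount of 5, 11 with no filter, 9 rescaled to TPM, 1537 with library weights, 141 from only the groups compared, 0 with replicates 1 and 2 only and 1 to 91 without 1 library. It called 5 Notch genes with library weights and 0 to 0 without 1 library. At E14.5, 1044 genes became 229 with no filter, 522 with values of at least 5 and 277 to 3389 without 1 library, and the 6 Notch genes became 1 with no filter and 2 to 8 without 1 library. The cause of these changes was not tested.

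The replicate block gave 7 Notch genes in the antibody sort, 4 in the reporter sort (Hes1 added) and 0 in the difference between sorts, and changed no other call of a Notch gene there. For groups that share only a number, the block gave 728 genes in SIX2+ against GFP+, and at E14.5 2307 genes and 8 Notch genes, with Notch3 (adjusted p = 0.0139) and Hes1 (0.0342) added. At E14.5 the same-numbered deviations correlated at 0.399, a single value because 2 libraries a group deviate by equal amounts, and 2 pairs were too few to take as pairing.

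Quantile normalisation split the antibody sort into 1578 higher and 1574 lower genes (main fit 1073 and 2036) and the E14.5 sort into 239 and 483 (151 and 893). Rescaling to TPM split the reporter sort into 1397 and 2532 (2035 and 2184) and shifted the median of all genes at E14.5 to -0.292, so log2 differences there are relative to that shift. Genes that failed a filter under an alternative have no value there. No result reversed its direction past the threshold. The depth of the Tdt+ libraries and of NZC library 2 limits the genes at few reads, Dll1 and Dll4 among them.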
